A study of Mus musculus with 12 samples.

Results

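Transcripts of 10 genes that restrain mitogen-activated protein kinase (MAPK) signalling were followed in the mouse hippocampus: the dual-specificity phosphatases Dusp1, Dusp4, Dusp5, Dusp6, Dusp8 and Dusp14, the Sprouty genes Spry2 and Spry4, and the Sprouty-related genes Spred1 and Spred2. They were taken by symbol from a table of 41743 genes, and all 10 were found. The animals were C57Bl/6 males of 12 weeks. The toxicant group had been injected under the skin on weekdays for 2 weeks with a mixture of DEET at 7.5 mg/kg, chlorpyrifos at 12.5 mg/kg and pyridostigmine bromide at 2.5 mg/kg, a model of exposures in the Gulf War. The control group received vehicle. Pyridostigmine and chlorpyrifos inhibit cholinesterases and DEET is an insect repellent. The mixture was given as a whole, so the agents cannot be told apart. Hippocampi were taken when exposure ended, from 6 different mice per group, and the columns of control 4 and control 5 were identical in every gene. They were counted once, as control 4, which left 5 control and 6 toxicant libraries.

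The MAPK cascades carry signals from growth factor and neurotransmitter receptors through RAS and RAF to the kinases ERK, JNK and p38. ERK activity switches on its own inhibitors, so that transcripts of several Dusp and Spry genes follow recent signalling through the cascade. DUSP proteins remove phosphate from the activated kinases, while Sprouty and Spred proteins act further up, at RAS and RAF. In hippocampal neurons, Dusp1, Dusp4, Dusp5 and Dusp6 are known as genes induced by synaptic activity or neurotrophins.

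The promoters of Dusp1, Dusp8 and Dusp5 are shown because each holds a full site for a factor that answers calcium, cyclic AMP or ERK signals in neurons. They come from RefSeq on GRCm38.p6 and run from 250 bases before to 50 bases after the start site, 5′ to 3′ on the strand of the gene. Entries were found for 8 of the 10 genes, all but Dusp4 and Spry4. Capitals mark the cyclic AMP response element TGACGTCA, its core TGACG on either strand, and the CArG box bound by serum response factor.
Dusp1 (chr17:26508423-26508722, minus strand): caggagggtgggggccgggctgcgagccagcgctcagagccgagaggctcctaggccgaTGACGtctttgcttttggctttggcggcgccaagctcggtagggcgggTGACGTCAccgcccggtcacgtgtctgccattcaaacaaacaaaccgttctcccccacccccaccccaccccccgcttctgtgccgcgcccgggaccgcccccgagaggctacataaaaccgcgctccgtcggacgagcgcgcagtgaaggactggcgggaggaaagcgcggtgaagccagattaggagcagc
Dusp8 (chr7:142095235-142095534, minus strand): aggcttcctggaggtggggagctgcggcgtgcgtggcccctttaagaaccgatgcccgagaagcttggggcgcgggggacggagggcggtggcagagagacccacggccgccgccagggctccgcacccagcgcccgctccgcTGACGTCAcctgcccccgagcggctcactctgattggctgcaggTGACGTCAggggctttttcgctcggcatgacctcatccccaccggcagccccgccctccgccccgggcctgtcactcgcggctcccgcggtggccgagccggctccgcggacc
Dusp5 (chr19:53528895-53529194, plus strand): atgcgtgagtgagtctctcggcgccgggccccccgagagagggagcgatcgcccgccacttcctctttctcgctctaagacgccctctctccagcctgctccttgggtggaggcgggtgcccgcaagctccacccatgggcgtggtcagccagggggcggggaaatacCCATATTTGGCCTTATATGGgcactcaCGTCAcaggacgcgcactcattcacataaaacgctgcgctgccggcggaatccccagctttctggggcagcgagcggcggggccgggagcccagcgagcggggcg

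The Dusp1 window held 1 full cyclic AMP response element, 143 bases before the start site, and a further TGACG core 191 bases before it. The Dusp8 window held 2 full elements, 107 and 63 bases before the start site. Dusp5 had 2 CArG boxes end to end, beginning 82 and 72 bases before the start site, with a TGACG core at 55 bases. The full element, searched on both strands, lay in 1.79% of 32851 promoters of the same length, the CArG box in 1.63% and the TGACG core, which the full element contains on each strand, in 20.8%. Spred2 was the other gene with a core match, 51 bases before its start site. The core CCGGAA of sites for ETS factors, some of which ERK activates, was in the windows of Dusp14 and Spry2 and in 14.9% of all promoters. The AP-1 site TGANTCA lay in 0 of the 8 windows and in 7.81% of all promoters. These matches are descriptions of letters, and binding was not measured here.

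Values are RPKM, reads scaled to gene length and sequencing depth, so that levels can be compared between genes. The reads behind a library came to 21.5 M to 34.9 M, as recovered from the steps of the RPKM values, and 76.8% to 89.5% of them lay on annotated genes. The control libraries had a share of 85.4% ± 4.58 (SD, n = 5) and the toxicant libraries of 80.8% ± 2.68 (SD, n = 6), and a two-sided exact permutation test of the difference gave p = 0.0714. Controls 1, 3 and 6 lay above every toxicant library in this share, and controls 2 and 4 lay within the toxicant range. The summed level of 6 dentate granule cell markers was 66.7 to 93.6 RPKM in control and 59.3 to 82.1 RPKM in toxicant libraries, and that of 6 pyramidal cell markers 133 to 168 and 100.03 to 137 RPKM. Choroid plexus markers, from tissue next to the hippocampus, summed to between 15.1 and 2890 RPKM across libraries.

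In controls Dusp8 was the most abundant of the 10 genes, with a mean of 31.0 RPKM, followed by Spred2 (19.8), Dusp6 (16.4), Spred1 (13.8), Spry2 (13.7), Dusp5 (10.3), Dusp14 (8.45), Dusp4 (7.19), Dusp1 (3.97) and Spry4 (2.91 RPKM). Dusp8 stood above Spred2 with no overlap of their control ranges, and so did Dusp4 above Dusp1. Of the other neighbours in that order, Dusp6 was above Spred1 in 3 of 5 control libraries and Spred1 above Spry2 in 2 of 5, so these levels do not differ beyond their spread. In toxicant libraries the order was the same except that Spred1 (15.7 RPKM) came before Spred2 (15.4 RPKM) and Dusp6 (12.0 RPKM). Spred1 and Spred2 were each the higher in 3 of 6 libraries, as were Dusp6 and Spry2 (11.4 RPKM), and Dusp1 and Spry4 (2.58 and 2.54 RPKM). The other neighbours kept their order in all libraries of a group. Dusp1 had 145 to 470 reads per library, the lowest number among the 10 genes, and Dusp8 had 2613 to 5585, the highest.

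**Figure D1:**
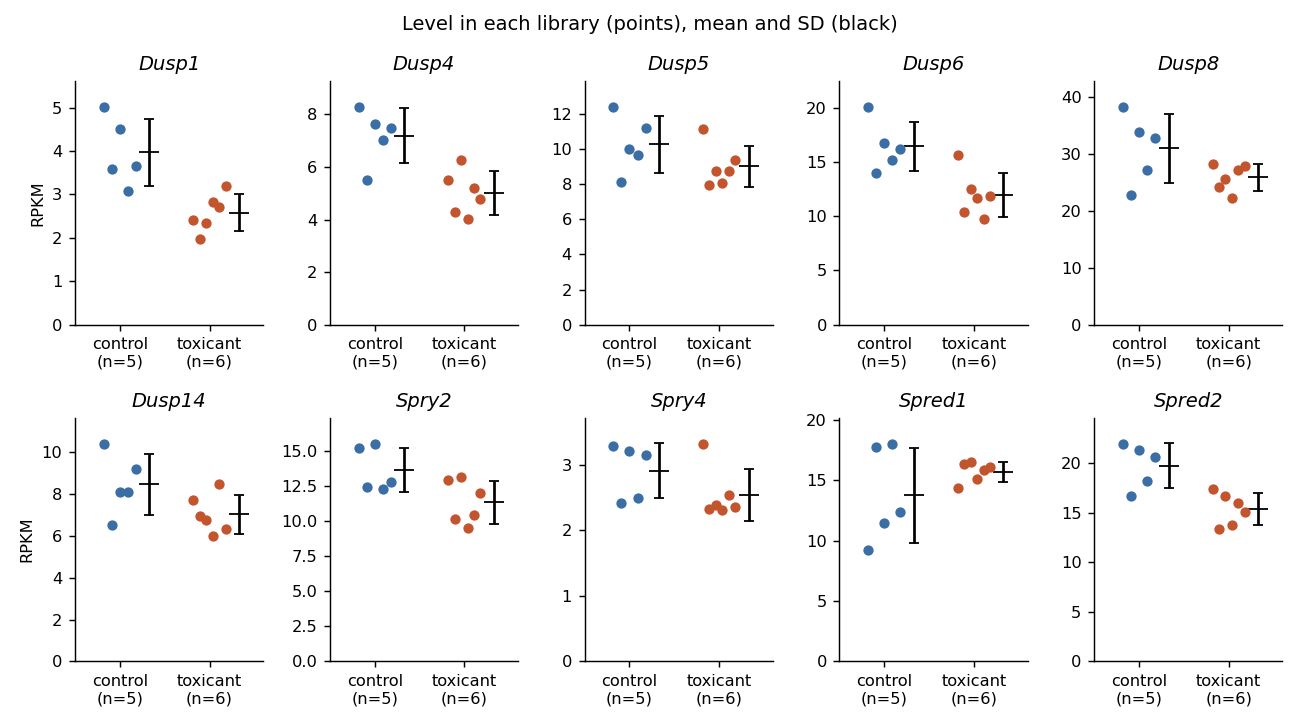
Level of each gene in RPKM (vertical axis, starting at 0) in the 5 control libraries (blue) and 6 toxicant libraries (orange), with the mean and SD in black. Dusp1, Dusp4, Dusp6 and Spred2 sit lower in most toxicant libraries, with overlap in each gene, while the Spred1 controls spread from 9.21 to 18.02 RPKM around the toxicant values.

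Of the 10 genes, the 4 with the smallest p were Dusp1, Dusp4, Dusp6 and Spred2, and their mean levels in toxicant libraries were 0.650, 0.696, 0.728 and 0.779 of the control means. Across the 13493 genes tested with limma, 0 of the 10 genes passed an adjusted p of 0.05, where 0% of all genes did. At an unadjusted limma p under 0.05 there were 5 of the 10 lower (these 4 and Spry2), beside 17.0% of all genes, and 0 higher, beside 3.33%. Limma voom on recovered reads also called 0 of the 10. An exact rank-sum permutation test called 0 as well, but its smallest possible p with these libraries, 0.00433, was reached by 289 genes, too few for any of them to pass after adjustment. The median log2 fold change of the 10 genes was -0.25, and that of all tested genes -0.11. Of the 10 genes 9 had a lower mean log2 level in toxicant libraries, as did 69.96% of all tested genes. After median-ratio scaling, which moves the median of all genes to 0.0014, the median of the 10 was -0.12, with 4 of them lower at an unadjusted limma p under 0.05 beside 5.14% of all genes, and 0 higher beside 8.19%. The 10 genes were chosen with earlier results of these data known, so their counts beside those of all genes are a description and not a test. Fold changes are on the log2(RPKM + 0.5) scale and understate those of low genes, and they are to be read against the shift of all genes. In whole tissue, fewer cells of a type and less RNA per cell cannot be told apart.

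Dusp1 (ENSMUSG00000024190, chromosome 17 from 26505590 to 26562128 in GRCm38, GENCODE M21) encodes a nuclear phosphatase of ERK, p38 and JNK that is itself an immediate early gene. Its level was 5.01, 3.58, 4.50, 3.09 and 3.66 RPKM in controls 1, 2, 3, 4 and 6, and between 1.98 and 3.21 RPKM (median 2.56) in toxicant libraries. Of the toxicant libraries 5 of 6 lay below the lowest control, and toxicant 6 alone overlapped the control range. The means were 3.97 ± 0.774 (SD, n = 5) and 2.58 ± 0.429 RPKM (SD, n = 6). The log2 fold change was -0.53 ± 0.13 (SE, limma adjusted p = 0.170), with an exact permutation p of 0.00649, unadjusted. In GENCODE M21 the gene Ergic1, on the opposite strand, overlaps the Dusp1 model, and the exons of the pair share 11 bases.

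Dusp4 (ENSMUSG00000031530, chromosome 8 from 34807297 to 34819894) encodes another nuclear phosphatase, induced by ERK. The control libraries were at 8.27, 5.51, 7.65, 7.03 and 7.48 RPKM, and the toxicant libraries between 4.01 and 6.25 RPKM (median 4.99). Control 2 was the low one among controls, and toxicant 1, at 5.51 RPKM, lay just under it. Again 5 of 6 toxicant libraries were below the lowest control. On the log2 scale the difference was -0.48 ± 0.12 (limma adjusted p = 0.172, exact permutation p = 0.0108 unadjusted).

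Dusp6 (ENSMUSG00000019960, chromosome 10 from 99263231 to 99267489) encodes a cytoplasmic phosphatase selective for ERK, whose transcript is widely used as a readout of ERK activity. It was at 20.0, 14.0, 16.8, 15.2 and 16.2 RPKM in controls 1, 2, 3, 4 and 6, and between 9.71 and 15.6 RPKM (median 11.8) in toxicant libraries. Toxicant 1 was the highest of its group and the only toxicant library within the control range. In log2 terms the difference was -0.45 ± 0.12 (limma adjusted p = 0.191, exact permutation p = 0.0108 unadjusted). For Dusp1, Dusp4 and Dusp6 alike, at least 5 of 6 toxicant libraries lay below the lowest control, as in 5.79% of all tested genes. A complete separation of the groups, found in 2.03% of all genes with toxicant below control, was met by 0 of the 10.

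Dusp5, Dusp8 and Dusp14 had smaller fold changes, with intervals that include 0. Dusp5, a nuclear phosphatase specific for ERK, was at 8.13 to 12.4 RPKM in control and 7.96 to 11.1 RPKM in toxicant libraries. Its log2 fold change of -0.17 had a 95% interval from -0.42 to 0.07. The antisense transcript Gm50394, at a mean of 0.482 RPKM, shares 22.1% of the exon bases of Dusp5, and whether the reads keep strand is not given in the sources used here. Dusp8 (ENSMUSG00000037887, chromosome 7 from 142079490 to 142095843) encodes a phosphatase that acts mainly on JNK and p38. It was at 38.2, 22.8, 33.8, 27.3 and 32.9 RPKM in controls and between 22.2 and 28.3 RPKM (median 26.4) in toxicant libraries. Toxicant 4 lay below the lowest control and the other 5 toxicant libraries in the lower part of the control range. The difference on the log2 scale was -0.24, with a 95% interval from -0.51 to 0.03. Dusp14, a small phosphatase without the kinase-binding domain of the others, was at 6.50 to 10.4 and 5.97 to 8.45 RPKM, a log2 fold change of -0.25 with an interval from -0.50 to 0.0072.

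Of the Sprouty genes, Spry2, an inhibitor of RAS-ERK signalling below growth factor receptors, was at 12.3 to 15.5 RPKM in control and 9.502 to 13.1 RPKM in toxicant libraries. Its log2 fold change was -0.26 ± 0.10 (limma adjusted p = 0.226, exact permutation p = 0.0541 unadjusted), and toxicant libraries 2, 4, 5 and 6 were under all controls. Spry4, a relative of the same function, was at 2.42 to 3.29 RPKM in control libraries. In toxicant libraries 5 of 6 lay between 2.31 and 2.54 RPKM, and toxicant 1, at 3.32 RPKM, lay above every control. Its log2 fold change was -0.17 with an interval from -0.39 to 0.06, and -0.23 without toxicant 1.

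The fold changes of the Spred genes had opposite signs. Spred2 (ENSMUSG00000045671, chromosome 11 from 19924375 to 20024026), which blocks the activation of RAF, was at 21.96, 16.6, 21.3, 18.2 and 20.6 RPKM in controls and between 13.3 and 17.4 RPKM (median 15.5) in toxicant libraries. Of these, 4 of 6 lay below the lowest control, which was control 2. Between groups the log2 difference was -0.35 ± 0.10 (limma adjusted p = 0.197, exact permutation p = 0.0108 unadjusted). Spred1 (ENSMUSG00000027351, chromosome 2 from 117121374 to 117182279), which brings the RAS inhibitor neurofibromin to the membrane, was at 9.21, 17.7, 11.4, 18.02 and 12.4 RPKM in controls. Toxicant libraries were between 14.4 and 16.5 RPKM (median 15.99), inside that range. The coefficient of variation of Spred1 was 28.6% in control, the highest of the 10 genes there, and 5.23% in toxicant libraries, the lowest. Its log2 fold change of 0.23 had an interval from -0.10 to 0.56. The ratio of Spred2 to Spred1 was 2.38, 0.939, 1.87, 1.01 and 1.66 in controls 1, 2, 3, 4 and 6, and 0.817 to 1.21 in toxicant libraries.

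**Figure D2:**
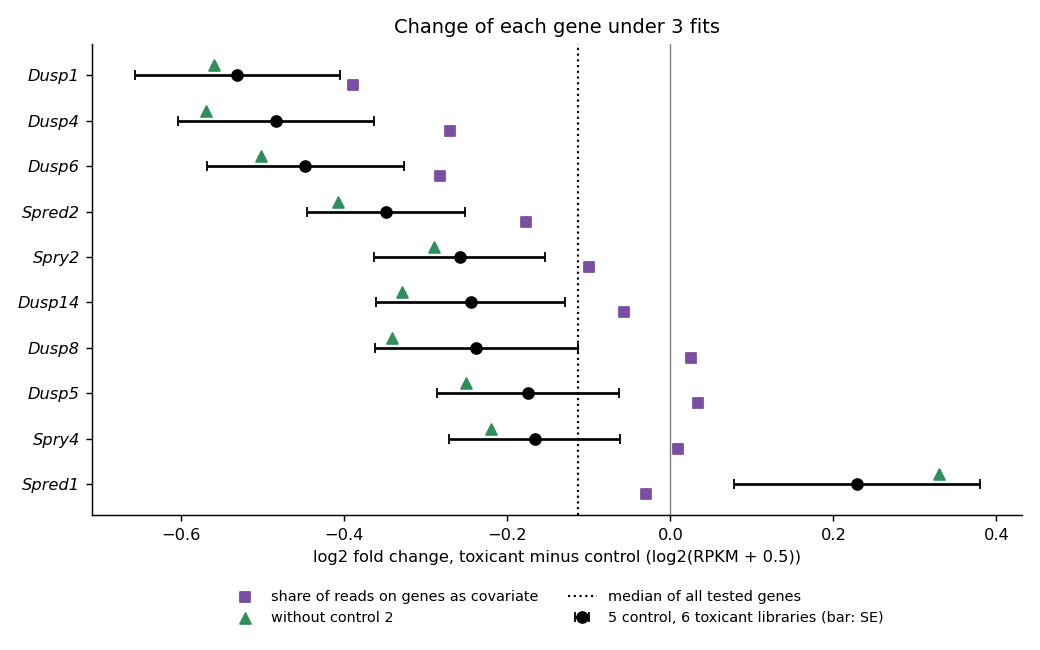
Log2 fold change of each gene (horizontal axis, toxicant minus control) with all 11 libraries (black, bar is the SE), with the percentage of reads on genes fitted as a covariate (violet squares) and without control 2 (green triangles). The dotted line is the median of all tested genes with all 11 libraries, -0.11. That median was -0.03 with the covariate and -0.16 without control 2, which are not drawn. Dusp1, Dusp4, Dusp6 and Spred2 lie furthest below the dotted line in each of the 3 fits.

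Levels varied together from library to library. Control 1 had the highest level of all 11 libraries for 7 of the 10 genes, and toxicant 4 the lowest for 5. Among controls, control 2 was the lowest for 7 of the 10. These libraries also stood at the ends of the share of reads on genes, which was 89.5% in control 1, 78.4% in control 2 and 76.8% in toxicant 4. For Dusp8, the order of the 5 control libraries by level was their order by that share, and so was the order of the 6 toxicant libraries. Spred1 ran the other way among controls: 17.7 and 18.02 RPKM at shares of 78.4% and 83.1%, and 12.4, 11.4 and 9.21 RPKM at 87.4%, 88.4% and 89.5%. The summed level of 7 nuclear-retained RNAs, among them Malat1, was 870 and 549 RPKM in controls 2 and 4, and 233, 209 and 141 RPKM in controls 6, 3 and 1, while toxicant libraries were between 342 and 814 RPKM.

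**Figure D3:**
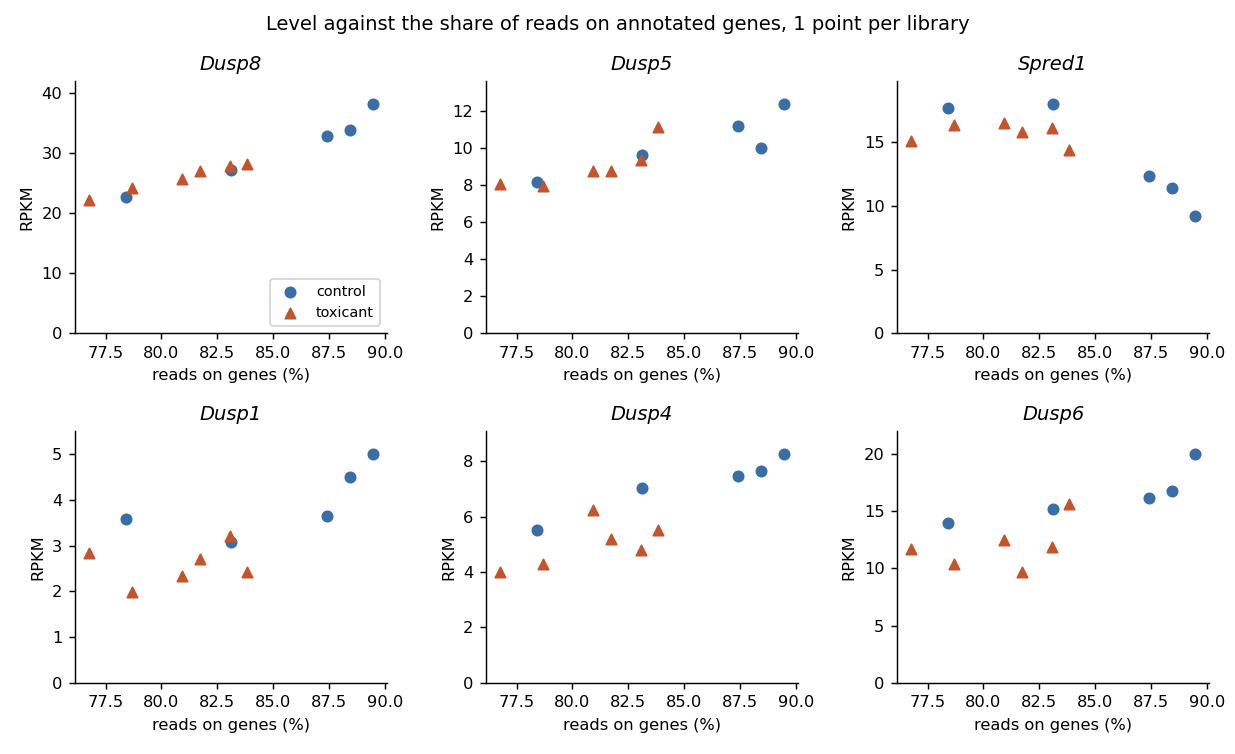
Level in RPKM (vertical axis, starting at 0) of 6 of the genes against the percentage of reads on annotated genes (horizontal axis), with 1 point per library (blue circles control, orange triangles toxicant). Points of both groups lie close together at similar shares for Dusp8 and Dusp5, and Spred1 lies lowest in the 3 controls of the highest share, while toxicant points of Dusp4 and Dusp6 lie mostly under control points of a similar share.

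With this share as a covariate in limma, the log2 fold change was -0.39 ± 0.13 for Dusp1, -0.27 ± 0.09 for Dusp4, -0.28 ± 0.11 for Dusp6 and -0.18 ± 0.06 for Spred2. These 4 were lower at an unadjusted limma p under 0.05, beside 9.13% of all genes, and 0 were higher, beside 4.34%. None of the 4 passed the adjusted threshold (limma adjusted p = 0.269 to 0.316). Values were 0.03 ± 0.04 for Dusp8, 0.03 ± 0.07 for Dusp5, 0.0091 ± 0.084 for Spry4 and -0.03 ± 0.12 for Spred1. Each had the opposite sign to the fit without the share, but was smaller in size than its SE. Spry2 and Dusp14 were at -0.10 and -0.06. The share itself went with 0.06 log2 units per percentage point for Dusp8 and -0.06 for Spred1, where the median over all genes was 0.02. Beyond this fit the part of the share in the differences between groups was not tested.

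Of all pairs of a control and a toxicant library, 3 had shares within 1 percentage point, and each pair sets single libraries side by side, with no replicate check. Control 2 (78.4% of reads on genes) and toxicant 2 (78.7%) were at 3.58 and 1.98 RPKM for Dusp1, 5.51 and 4.28 for Dusp4, 14.0 and 10.4 for Dusp6, 16.6 and 13.3 for Spred2, and 22.8 and 24.2 RPKM for Dusp8. Control 4 and toxicant 6, both at 83.1%, were at 3.09 and 3.21 RPKM for Dusp1, 7.03 and 4.80 for Dusp4, 15.2 and 11.9 for Dusp6, and 18.2 and 15.0 RPKM for Spred2. Control 4 and toxicant 1 (83.8%) were at 3.09 and 2.42 RPKM for Dusp1, 7.03 and 5.51 for Dusp4, 15.2 and 15.6 for Dusp6, and 18.2 and 17.4 RPKM for Spred2. In these pairs 8, 8 and 5 of the 10 genes were lower in the toxicant library, beside 58.0%, 53.5% and 66.0% of all tested genes. Dusp4, Spred1 and Spred2 were lower in the toxicant library in each of the 3 pairs. Dusp1, Dusp5, Dusp6, Dusp14, Spry2 and Spry4 were lower in 2 of them, and Dusp8 was higher in each pair. Control 4 stands in 2 of the pairs, and how many of all genes were lower in all 3 was not counted.

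Control 2, the control with the lowest share, decided how many genes passed. Without it limma called 6 of the 10 genes lower (Dusp1, Dusp4, Dusp6, Dusp8, Dusp14 and Spred2, adjusted p = 0.0227 to 0.0329), beside 28.1% of all genes, and 0 higher, beside 8.56%. Its omission gave log2 fold changes of -0.56 for Dusp1, -0.57 for Dusp4, -0.50 for Dusp6 and -0.34 for Dusp8, where the median of all genes was -0.16. Without control 1, the control with the highest share, the values moved the other way, to -0.45 for Dusp1, -0.43 for Dusp4, -0.38 for Dusp6, -0.16 for Dusp8, -0.11 for Dusp5 and 0.10 for Spred1, where the median of all genes was -0.09 and 0 of the 10 passed. Array weights called 9 of the 10 lower, beside 49.6% of all genes, and Spred1 higher, beside 21.2%. They give control 2 the least weight (0.132) and control 6 the most (12.5), where no other control is above 1.38. The control side of that fit thus rests largely on the single library of control 6. At an adjusted limma p of 0.1, which 0.0741% of all genes passed as lower and 0.00741% as higher, 0 of the 10 were called. With the identical columns both kept, 0 of the 10 passed 0.05, beside 0.0666% of all genes lower.

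The remaining members of these families were read from the same fit. The counts that follow stand beside 69.96% of all tested genes lower, 17.0% lower at an unadjusted limma p under 0.05 and 3.33% higher at that p. Of 14 tested genes among the other dual-specificity phosphatases, 11 were lower and 3 higher, with a median of -0.11. The adjusted test was passed by 0 of them, while 4 were lower and 0 higher at an unadjusted limma p under 0.05. Dusp3, which acts on ERK and JNK, was at 27.7 ± 3.50 and 21.9 ± 1.81 RPKM (log2 fold change -0.33 ± 0.09). Dusp7, the closest cytoplasmic relative of Dusp6, was at 27.1 ± 4.08 and 21.02 ± 1.99 RPKM (-0.35 ± 0.11). Spry1, another Sprouty inhibitor, was at 4.18 ± 0.686 and 3.15 ± 0.354 RPKM (-0.35 ± 0.10), and 5 of 6 toxicant libraries were under all controls. Spred3 was at 6.95 ± 0.305 and 6.43 ± 0.392 RPKM (-0.11 ± 0.06). Neither passed the adjusted test (limma adjusted p = 0.202 and 0.299).

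Above the kinases, counts of lower genes were near the share of all genes: 11 of 18 growth factor ligand genes (median -0.10), 11 of 15 receptor tyrosine kinases (median -0.11) and 16 of 24 adaptors, RAS and RAF genes (median -0.10), close to the median of all genes. In these 3 lists 0 genes passed the adjusted test, while at an unadjusted limma p under 0.05 there were 3, 5 and 4 genes lower and 2, 1 and 0 higher. The ligand gene with the smallest p was the neurotrophin Ntf3, at 2.88 ± 0.479 and 2.07 ± 0.285 RPKM, and the next was Tgfa, a ligand of the EGF receptor, at 5.35 ± 0.684 and 4.40 ± 0.438 RPKM. Among receptors, the pericyte receptor Pdgfrb was at 2.81 ± 0.303 and 2.10 ± 0.191 RPKM and the neuregulin receptor Erbb3 at 1.70 ± 0.282 and 1.17 ± 0.177 RPKM. Rasgrf1, a calcium-dependent activator of RAS in neurons, was at 40.2 ± 4.95 and 30.7 ± 1.94 RPKM. Its log2 fold change was -0.38 ± 0.09 (adjusted p = 0.169 with limma), and 6 of 6 toxicant libraries lay below the lowest control. The adaptor Gab1 was at 5.11 ± 0.539 and 3.98 ± 0.520 RPKM.

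Of 18 MAP kinases and kinases that activate them, 15 were lower (median -0.15), led by Mapk4 at 8.10 ± 1.16 and 6.33 ± 0.841 RPKM and Map2k5, the activator of ERK5, at 7.998 ± 1.47 and 6.32 ± 0.415 RPKM. Downstream kinases and factors were lower in 13 of 20 cases (median -0.14). Etv1, an ETS factor, had a higher mean in toxicant libraries, at 6.22 ± 0.630 and 7.92 ± 1.01 RPKM. Its log2 fold change was 0.32 ± 0.10 (adjusted p = 0.205 with limma), with 5 of 6 toxicant libraries above the highest control. The ETS factor Elk1, a target of ERK, was at 12.6 ± 1.49 and 10.1 ± 1.17 RPKM. Other inhibitors of RAS-ERK signalling were lower in 14 of 16 cases (median -0.12), among them the EGF receptor inhibitor Errfi1 at 10.3 ± 1.35 and 8.61 ± 1.05 RPKM. None of these 3 lists had a gene past the adjusted test, and at an unadjusted limma p under 0.05 they held 8, 3 and 3 genes lower and 0, 2 and 0 higher.

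The medians of transcripts that ERK or synaptic activity induces lay further below that of all genes, as did those of several cell type marker lists given below. Of 13 other ERK-induced transcripts 12 were lower (median -0.22), and of 11 activity-induced genes 10 were (median -0.29), again with 0 past the adjusted test, and with 3 and 5 lower and 0 and 1 higher at an unadjusted limma p under 0.05, beside 17.0% and 3.33% of all genes. The higher one was Homer1, a postsynaptic scaffold gene named here after its value was seen, with a log2 fold change of 0.41. Ier2, an immediate early gene, was at 4.10 ± 1.07 and 2.85 ± 0.665 RPKM, and the transcription factor Bhlhe40 at 15.9 ± 2.27 and 13.2 ± 1.14 RPKM. Arc, a synaptic immediate early gene, was at 37.0 ± 5.64 and 20.04 ± 3.59 RPKM, with a limma adjusted p of 0.0715. No tested gene had a smaller adjusted p, but Arc did not stand alone at this value. Among the genes that shared it was an oligodendrocyte marker with a smaller unadjusted limma p than Arc. At a limma adjusted p under 0.1 there were 10 genes lower and 1 higher. Fos was at 4.37 ± 0.418 and 2.56 ± 0.609 RPKM. For Arc and Fos all 6 toxicant libraries lay below every control, which held for none of the 10 Dusp, Spry and Spred genes. In the fit that adjusts for the percentage of reads on genes, the medians of these 2 lists were -0.04 and -0.23, and that of the 10 Dusp, Spry and Spred genes -0.08, where all genes were at -0.03.

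**Figure D4:**
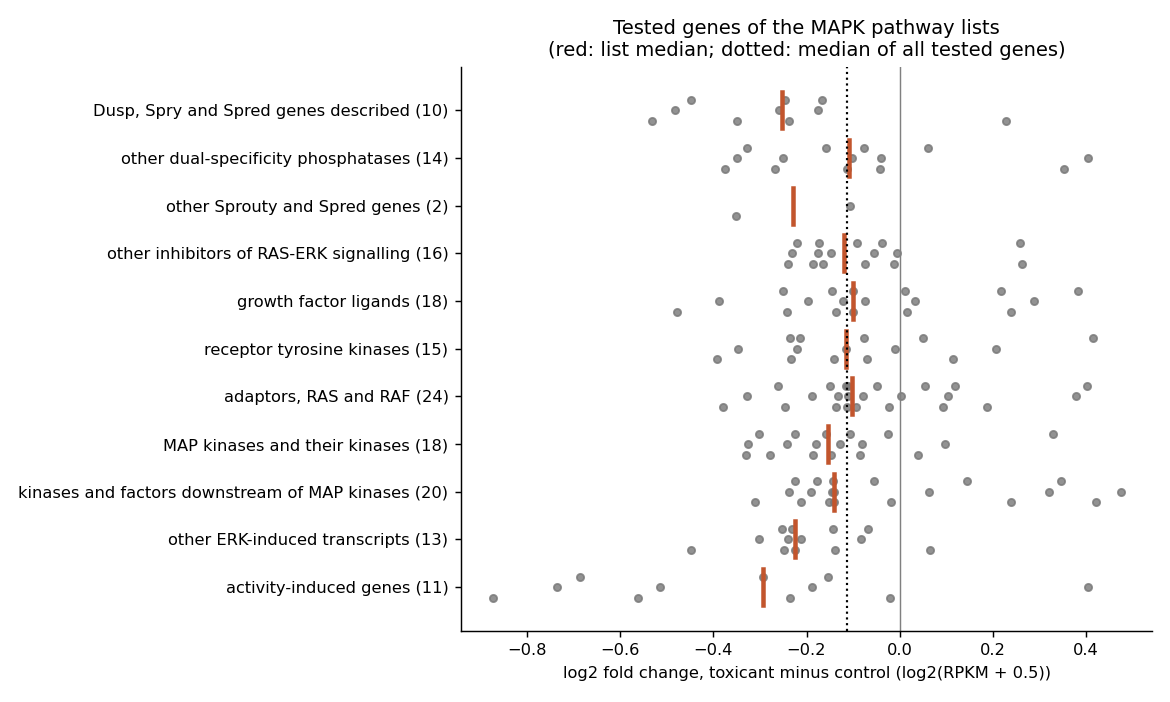
Log2 fold change (horizontal axis, toxicant minus control) of each tested gene of the MAPK pathway lists, with 1 point per gene, the number of genes in brackets, the list median in red and the median of all tested genes dotted. The medians of ligands, receptors, adaptors, other dual-specificity phosphatases and other inhibitors sit at or near the dotted line. Those of the Dusp, Spry and Spred genes (-0.25), other ERK-induced transcripts (-0.22) and activity-induced genes (-0.29) lie to its left. So do those of the other Sprouty and Spred genes (-0.23), MAP kinases and their kinases (-0.15) and downstream kinases and factors (-0.14).

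Cell type markers were read against the same shares, 69.96% of all tested genes lower and, at an unadjusted limma p under 0.05, 17.0% lower and 3.33% higher. In every marker list 0 passed the adjusted test. At the unadjusted p, 8 of 10 oligodendrocyte, 6 of 10 microglial, 7 of 10 endothelial, 4 of 7 mural, 4 of 4 blood, 4 of 6 pyramidal, 3 of 6 dentate, 2 of 8 astrocyte, 2 of 8 oligodendrocyte precursor, 0 of 6 interneuron and 0 of 8 choroid plexus markers were lower. At the same p 1 interneuron and 1 mural marker were higher, and 0 in the other cell type lists. Of 10 oligodendrocyte markers 8 were lower, and their summed level was 738 to 825 RPKM in control and 509 to 704 RPKM in toxicant libraries. All 10 microglial markers were lower (summed level 122 to 160.1 and 101.3 to 125 RPKM), as were 9 of 10 endothelial markers (41.9 to 51.2 and 36.0 to 40.5 RPKM). Of 8 markers of oligodendrocyte precursors, cells that depend on growth factor signalling, 7 were lower (79.7 to 132 and 78.2 to 96.5 RPKM), and of 8 astrocyte markers 6 (458 to 505 and 418 to 482 RPKM). Of the remaining lists, 4 of 6 interneuron, 5 of 7 mural, 4 of 4 blood, 6 of 6 pyramidal, 5 of 6 dentate and 7 of 8 choroid plexus markers were lower. The median log2 fold change was -0.51 for choroid plexus, -0.50 for oligodendrocyte, -0.45 for blood, -0.35 for dentate and -0.29 for pyramidal markers. It was -0.27 for microglial and for endothelial, -0.23 for mural, -0.15 for astrocyte and for oligodendrocyte precursor, and -0.12 for interneuron markers. No marker of these lists was at 0 in all libraries. Their part in the levels of the Dusp, Spry and Spred genes was not tested.

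The genes whose pattern over the 11 libraries was most like the mean standardised pattern of the 10 genes were Zdhhc9, Pcbp2, Dusp3, Actb and Wdr1, with Pearson's r between 0.987 and 0.994, given as a description of libraries that share depth and share of reads on genes. Actb, which encodes cytoplasmic actin, was at 551 ± 99.2 RPKM in control and 423 ± 52.0 RPKM in toxicant libraries. Of the 10 genes themselves, Spred2 was nearest to that mean pattern (r = 0.981) and Dusp1 the least near among those that ran with it (0.771). Spred1 ran against it (-0.761). Each of the 10 genes is itself part of the mean, which raises its r.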

How the data were processed

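Polyadenylated RNA of whole hippocampi was sequenced as single reads, per the labels' protocols. The deposited table gave RPKM values per gene, per the file headers. The sources used here do not name an aligner, counting program, build or annotation. Columns were matched to samples by the code in each sample's description. Identical columns were counted once.

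Values were tested as log2(RPKM + 0.5) for the 13493 genes whose mean reached 0.5 RPKM, with limma 3.58.1 in R 4.3.3 (lmFit, eBayes with a trend, no covariate, two-sided, Benjamini-Hochberg over all genes, threshold 0.05). The code was also run on simulated data with independent noise in each gene. Shifts that the genes of a library share were not simulated, so that run cannot show how the test behaves under them. Exact permutation tests ran over all 462 splits of 11 libraries, which allow no p under 0.00216. Nothing in the labels gives a batch. Multiplied by GENCODE M21 exon lengths, 98.5% to 98.7% of the low values came out as whole reads within 0.05, which gave the depth. No count model was the main test, since RPKM are not counts.

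The 10 genes and the lists were chosen with earlier results of these data known. All 10 are described. Of every other list the 2 genes with the smallest p are named, and the 5 genes most like the mean pattern. One gene that this rule names is not reported here. Of the list symbols, Spry3 was not matched. Alternatives were other pseudocounts, filters, scalings, variance models, weights, the replicate block, the share covariate, voom on recovered reads, all 12 columns, an adjusted p of 0.1, a rank-sum test and leaving out each library.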

Additional observations from a re-analysis of the deposited data

Results flagged for a closer look

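Spry4 in toxicant 1, at 3.32 RPKM, stood apart from the other toxicant libraries, the nearest of which was at 2.54 RPKM. The gap was 0.772 of the range of the group, above Dixon's critical value of 0.625 for 6 samples. Of 20 groups examined (10 genes in each of 2 groups) 1 was so marked, and chance marks about 1 in 20.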

How the results depend on the processing

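The 10 genes kept their direction under all alternatives but the covariate fit. With the percentage of reads on genes in the model, Dusp5 (0.0345), Dusp8 (0.0258), Spry4 (0.00908) and Spred1 (-0.0295) had the opposite sign. Each of these values was smaller in size than its SE, and the median of the 10 was -0.0783 in place of -0.25. The cause was not tested. Limma called 1 gene in all with a pseudocount of 0.1, 9 with all 12 columns and 11 at an adjusted p of 0.1, of which 0 were among the 10 genes. Array weights, which ran from 0.132 for control 2 to 12.5 for control 6, called 9553 genes (2863 higher, 6690 lower) and all 10 of the genes described, 9 lower (49.6% of all genes) and 1 higher (21.2%). Leaving out each library in turn gave 0 to 4932 genes called, 0 to 6 of the 10 and medians from -0.34 to -0.19. The counts of 4932 and 6 came without control 2, and each of the other omissions called 0. Replicate numbers are shared between the groups, and the deviations of same-numbered libraries correlated at 0.62, 0.28, -0.30, 0.32 and 0.27 for numbers 1, 2, 3, 4 and 6. Since 1 pair was negative and only control 1 correlated best with its own number, the numbers were not taken to pair animals. With the replicate block the median was -0.27 and 0 genes were called, and toxicant 5 had no partner. Omitting control 4 stands for the library that controls 4 and 5 share. Dusp1 and Spry4 had the fewest reads of the 10 genes, with medians of 299 and 339 per library. The part of depth in their spread was not tested.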

Other observations

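Among the other dual-specificity phosphatases, the 3 with a higher mean in toxicant libraries were Dusp11, Dusp19 and Styx, named after their values were seen. Dusp11, a phosphatase of RNA rather than of kinases, ranged from 2.11 to 9.92 RPKM in control and from 3.98 to 7.54 RPKM in toxicant libraries. Styx, a catalytically inactive member of the family, was at 0.402 to 1.85 and 0.793 to 1.58 RPKM. In the fit with the percentage of reads on genes as a covariate their log2 fold changes were -0.36 and -0.06, where they had been 0.35 and 0.41. None of the 3 passed the adjusted test with limma (adjusted p = 0.268 to 0.595).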
